A study of Mus musculus with 4 samples.

Results

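Glycolytic enzymes, glucose and lactate transporters and transcriptional targets of the hypoxia-inducible factors (HIFs) were followed in mouse embryonic stem cells (ESCs) with and without *Bmal1*. The set held 38 genes, chosen by name and matched by gene symbol, and each was found among the 19645 features of the RNA-seq tables. After a minimum mean level of 0.5 FPKM (fragment counts scaled by transcript length and library size), 36 of the 38 could be tested, among 12990 features in all. They comprised 16 glycolytic enzymes, 4 transporters, 2 regulators of phosphofructokinase, 3 genes of oxygen sensing and 13 HIF targets, of which 11 passed the minimum.

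Total RNA depleted of ribosomal RNA was sequenced from 2 libraries of WT ESCs and 2 libraries of *Bmal1* KO ESCs. The KO cells were a line picked as one clone after CRISPR-Cas9 cutting at the start codon of *Bmal1* (listed as *Arntl*), and the WT cells carried no edit by their labels. By the study's methods ESCs grew without feeder cells in serum, LIF and a high-glucose medium, and no low-oxygen treatment was named for these libraries. The study calls the libraries of a genotype biological duplicates, but neither it nor the labels say whether they came from separate cultures. The p-values measure only the spread between these libraries. With 1 KO clone, loss of BMAL1 and any other property of that clone cannot be told apart.

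Glycolysis splits glucose into pyruvate, and cells that then reduce pyruvate to lactate regenerate the cofactor that the pathway needs. HIF-1α and HIF-2α are marked for destruction by prolyl hydroxylases and the VHL ubiquitin ligase while oxygen is present, and when stable they pair with ARNT and bind a short hypoxia response element in the promoters of glycolytic, angiogenic and mitophagy genes. BMAL1 belongs to the same bHLH-PAS protein family as the HIFs and pairs with CLOCK on E-boxes, whose core overlaps that element. Mouse ESCs are known for strong lactate production.

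*Arntl* itself read 6.05 and 6.29 FPKM in the WT libraries and 5.95 and 5.92 FPKM in the KO libraries (log2 fold change −0.06, SE 0.10, adjusted p = 0.75). A small frameshifting deletion need not lower the RNA, so this level does not check the genotype. The summed FPKM of 8 ESC markers, of which *Pou5f1* was the highest, was 2948 to 3071 in WT and 2715 to 2912 in KO. *Klf4* fell (log2 fold change −0.46, adjusted p = 0.0177), *Tfcp2l1* rose (0.39, adjusted p = 0.0259) and the other 6 did not pass. The 7 fibroblast markers, mostly *Thy1*, summed to 2.21 to 2.48 FPKM in WT and 2.93 to 3.60 FPKM in KO. The sum of 7 primitive endoderm markers was 3.12 to 3.41 FPKM in WT and 4.29 to 4.64 FPKM in KO. Most of it was *Col4a1*, at 2.315 and 1.93 FPKM in WT and 2.83 and 2.76 FPKM in KO. *Sox7* and *Dab2* were also higher in both KO libraries, whereas *Gata4* was lower in both and *Gata6*, *Sox17* and *Afp* overlapped. The part of these marker shifts in the results was not tested. Features without a gene symbol took 26.8% and 37.3% of the summed FPKM in WT against 19.0% and 18.1% in KO, and the part of this difference in the results was not tested. The median log2 fold change of all 12990 tested features was −0.02.

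In *Bmal1* KO ESCs the main lactate dehydrogenase gene *Ldha*, the lactate exporter *Slc16a3* and the HIF targets *Ak4*, *Bnip3* and *Ankrd37* were down-regulated, while *Ldhb*, *Eno2* and the histone demethylase gene *Kdm3a* were up-regulated. The other 28 tested members did not pass an adjusted p of 0.05 (limma, Benjamini-Hochberg over all tested features). The 3 risen members of 36 compared with 6.85% of all tested features that rose (890 features), and the 5 fallen members with 5.6% that fell (728 features). The members were chosen with earlier results of these data known, including the falls of *Ldha* and *Ak4*. The fallen count is thus not independent of that choice. A call that also required a change over 2-fold was met by *Ldhb*, *Eno2* and *Ak4*, against 4.14% of all tested features. In 11 members the lower KO library exceeded the higher WT library, and in 15 the reverse held, where the shares over all tested features were 27.0% and 31.7%. The median log2 fold change of the 36 members was −0.07, close to that of all features. In bulk RNA, fewer cells expressing a gene and less RNA per cell cannot be told apart.

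**Figure D1:**
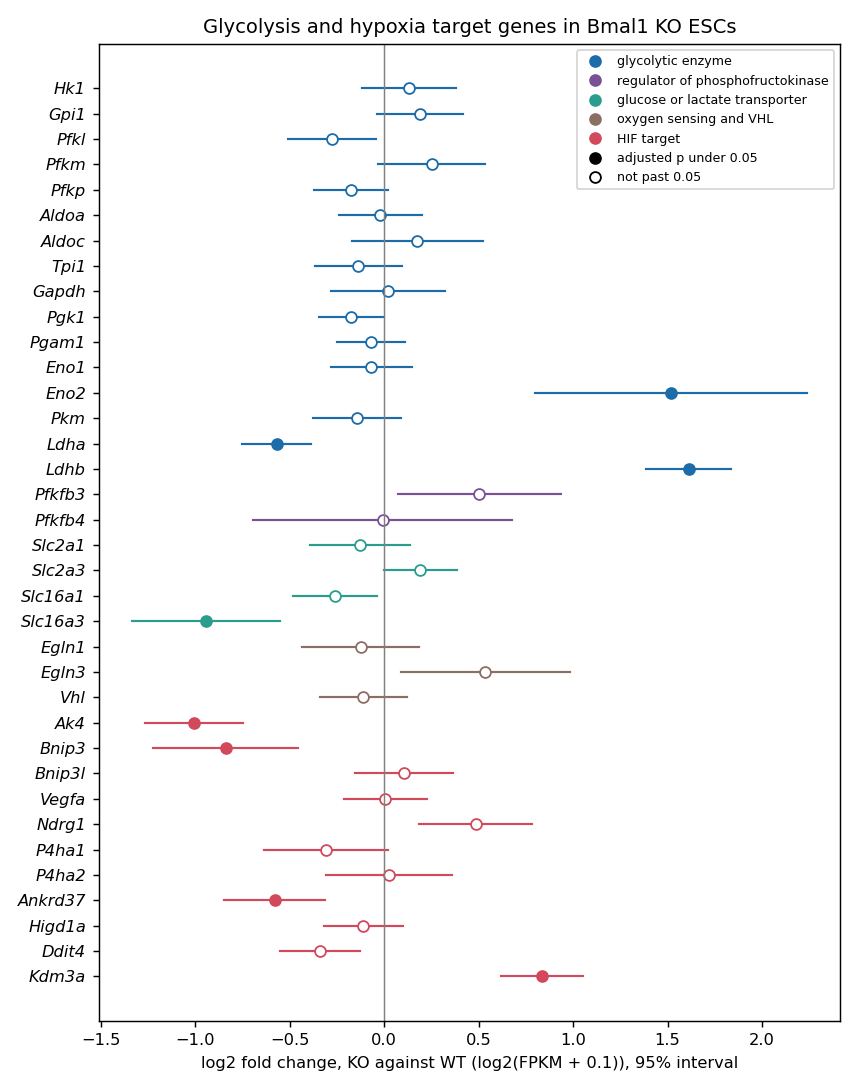
Log2 fold change (KO against WT, on log2(FPKM + 0.1)) of the 36 tested members, by role, with 95% intervals; filled points passed an adjusted p of 0.05. *Ldhb* (1.61) and *Eno2* (1.52) stand far to the right and *Ak4* (−1.005) and *Slc16a3* (−0.94) far to the left, while most glycolytic enzymes sit near 0.

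*Ldha* encodes the muscle-type subunit of lactate dehydrogenase, which reduces pyruvate to lactate. It lies on the forward strand at chr7:46845804-46855629 (GRCm38). Its level was 888 and 877 FPKM in the WT libraries and 603 and 587 FPKM in the KO libraries. The groups were well apart, by far more than libraries of a genotype differed from each other. The fall was 1.48-fold (log2 fold change −0.57, SE 0.07, adjusted p = 0.00989). In WT, *Ldha* lay above the aldolase gene *Aldoa* (702 to 751 FPKM) and the phosphoglycerate mutase gene *Pgam1* (662 to 682 FPKM), and in KO it lay below both (681 to 753 and 638 to 645 FPKM). *Ldha* has processed pseudogenes in the mouse genome, and how reads shared with them were assigned is not given in the sources used here.

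*Ldhb*, the heart-type subunit, whose enzyme is better known for turning lactate back to pyruvate, moved the other way. The gene lies on the reverse strand at chr6:142490249-142507957. It read 33.8 and 33.8 FPKM in WT and 111 and 96.4 FPKM in KO. The WT libraries were alike, and even the lower KO library was far above them. The log2 fold change was 1.61 (SE 0.09, adjusted p = 0.00169), a ratio of means of 3.07. The testis-type gene *Ldhc*, which neighbours *Ldha*, was low at 1.75 and 2.32 FPKM in WT and 0.508 and 0.173 FPKM in KO (log2 fold change −2.38, adjusted p = 0.0224).

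Set against each other, *Ldha* exceeded *Ldhb* 26.3-fold and 26.0-fold in the WT libraries but 5.43-fold and 6.09-fold in the KO libraries. *Ldhb* thereby made up 3.66% and 3.70% of lactate dehydrogenase FPKM in WT and 15.5% and 14.1% in KO. The summed FPKM of the 3 genes still fell, from 924 and 914 to 715 and 684. The ratio of *Ldha* to the other 15 glycolytic enzymes summed was 0.0989 and 0.107 in WT and 0.0676 and 0.0734 in KO. Such ratios within a library do not depend on how the library was scaled, and the groups did not overlap for either. With 2 libraries a group the two-sided exact permutation test cannot go below p = 0.333, the value both ratios gave.

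The promoters of *Ldha* and *Ldhb* are shown because these genes moved in opposite directions, and those of *Ak4* and *Kdm3a* because these HIF targets did the same. Each is the RefSeq window (GRCm38.p6) of 250 bases before and 50 after the gene's start, 5′ to 3′ on the gene's strand. Capitals mark the HIF core motif, ACGTG or GCGTG on either strand, and the E-box CACGTG, which holds that core on both strands. The windows are chr7:46845554-46845853 (+) for *Ldha*, chr6:142507908-142508207 (−) for *Ldhb*, chr4:101419039-101419338 (+) for *Ak4* and chr6:71632868-71633167 (−) for *Kdm3a*.
Ldha: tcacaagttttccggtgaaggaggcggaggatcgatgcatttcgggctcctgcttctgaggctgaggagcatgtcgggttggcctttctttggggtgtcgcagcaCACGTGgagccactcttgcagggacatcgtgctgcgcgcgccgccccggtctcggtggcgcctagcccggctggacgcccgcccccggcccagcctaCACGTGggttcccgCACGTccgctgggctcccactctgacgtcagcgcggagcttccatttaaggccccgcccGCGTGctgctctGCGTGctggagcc
Ldhb: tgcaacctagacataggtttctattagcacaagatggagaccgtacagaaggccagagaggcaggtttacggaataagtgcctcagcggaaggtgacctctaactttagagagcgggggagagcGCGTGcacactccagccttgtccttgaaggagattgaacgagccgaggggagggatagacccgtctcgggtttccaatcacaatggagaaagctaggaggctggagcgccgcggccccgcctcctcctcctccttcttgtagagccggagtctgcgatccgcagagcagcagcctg
Ak4: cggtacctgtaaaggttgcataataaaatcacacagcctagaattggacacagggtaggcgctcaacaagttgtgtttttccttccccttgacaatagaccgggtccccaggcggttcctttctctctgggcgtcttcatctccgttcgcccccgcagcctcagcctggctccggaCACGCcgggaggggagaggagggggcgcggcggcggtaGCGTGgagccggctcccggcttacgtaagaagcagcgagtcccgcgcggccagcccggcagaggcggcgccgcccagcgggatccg
Kdm3a: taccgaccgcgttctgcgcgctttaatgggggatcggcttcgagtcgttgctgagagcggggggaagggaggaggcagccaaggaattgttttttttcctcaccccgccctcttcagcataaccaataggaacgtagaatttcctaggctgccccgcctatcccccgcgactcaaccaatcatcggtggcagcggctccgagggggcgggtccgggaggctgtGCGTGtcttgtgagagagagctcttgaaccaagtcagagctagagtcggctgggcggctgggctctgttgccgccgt

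The *Ldha* window held 2 E-boxes, starting at bases −145 and −48 from the start site, and 3 further cores at −34, 25 and 37. The *Ak4* window held cores at −74 and −36, that of *Ldhb* a core at −126 and that of *Kdm3a* a core at −27. Windows were given for 35 of the 38 members (*Slc2a3*, *Bnip3l* and *Ndrg1* had no entry). The core occurred in 27 of these 35 (77.1%), and in 43.8% of all 32851 promoter windows. The core contains a CG pair, and member windows held a median of 21 such pairs against 7 over all windows. Among the 8148 windows with at least 21 CG pairs, 74.0% held the core. Their median was 29 such pairs, so they were richer in CG pairs than the member windows. By direction, it occurred in 5 of 5 fallen members, 2 of 3 risen members and 18 of 25 windows of members that did not pass the test. The E-box occurred in *Ldha*, *Bnip3*, *Pfkm* and *Slc16a1*, which is 11.4% of member windows against 7.15% of all. It also contains a CG pair, and its share among windows rich in CG pairs was not computed. Some windows lay far from the listed start of their feature, by 53896 bases for *Pfkm*, 8839 for *Aldoa*, 3773 for *Gpi1* and 3544 for *Pfkfb4*. These matches describe letters in a window and no binding was measured.

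Of the other 14 glycolytic enzymes, *Eno2* passed the test and 13 did not. This neuronal enolase gene (chr6:124760053-124769673, reverse strand) was low, at 1.17 and 0.625 FPKM in WT and 2.74 and 2.56 FPKM in KO. The KO libraries were alike, whereas the WT libraries differed from each other by more, without reaching the KO level. The log2 fold change was 1.52 (SE 0.29, adjusted p = 0.0276), the widest error of the 8 members that passed. *Eno2* supplied at most 0.223% of enolase FPKM, most of which came from *Eno1*, so its rise left the enolase sum at 1144 to 1239 FPKM in KO against 1202 to 1277 in WT.

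The 13 remaining enzymes, which carry out the steps from hexokinase to pyruvate kinase, had log2 fold changes between −0.28 (*Pfkl*, a phosphofructokinase gene) and 0.25 (*Pfkm*, another). *Gapdh*, the dehydrogenase in the middle of the pathway, was the highest of all members at 4198 and 3649 FPKM in WT and 4266 and 3695 FPKM in KO. Its libraries overlapped fully, with a log2 fold change of 0.02 and a 95% interval from −0.28 to 0.32. *Pkm* (pyruvate kinase) at 1190 to 1274 FPKM and *Eno1* at 1181 to 1254 FPKM in WT came next and did not differ from each other beyond their spread. In KO they read 1055 to 1183 and 1116 to 1208 FPKM. *Pgk1*, phosphoglycerate kinase, was 280 and 290 FPKM in WT and 251 and 254 FPKM in KO, groups that did not overlap but a change of −0.17 (log2, adjusted p = 0.164). The same held for *Pfkl*, at 64.3 and 57.3 FPKM in WT and 52.7 and 47.8 FPKM in KO (adjusted p = 0.119). Over the 16 enzymes the median log2 fold change was −0.04, and their summed FPKM was 9874 and 9051 in WT and 9527 and 8591 in KO. These sums overlapped, and the difference within each genotype was larger than that between the genotypes.

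Several of these enzymes are uncertain by their position or sequence. *Hk1*, *Pfkm*, *Pfkp*, *Tpi1* and *Ankrd37* shared their listed coordinates with a neighbouring gene, and the strand setting of the counting is not given in the sources used here. *Gapdh*, *Pgk1*, *Eno1*, *Aldoa*, *Tpi1* and *Pkm* also have processed copies elsewhere in the genome.

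Hexokinase, which commits glucose to the cell, showed an isoform difference that came from a gene outside the 38. *Hk2* read 30.7 and 29.5 FPKM in WT and 73.5 and 69.2 FPKM in KO (log2 fold change 1.24, SE 0.08, adjusted p = 0.00169). *Hk1* was 12.6 and 11.0 FPKM in WT and 12.9 and 12.9 FPKM in KO (log2 fold change 0.13, adjusted p = 0.438). The *Hk2* share of their summed FPKM went from 71.0% and 72.8% to 85.1% and 84.3%. Among phosphofructokinases the mixture moved less, with *Pfkl* at 52.1% and 50.6% in WT and 47.4% and 47.2% in KO.

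**Figure D2:**
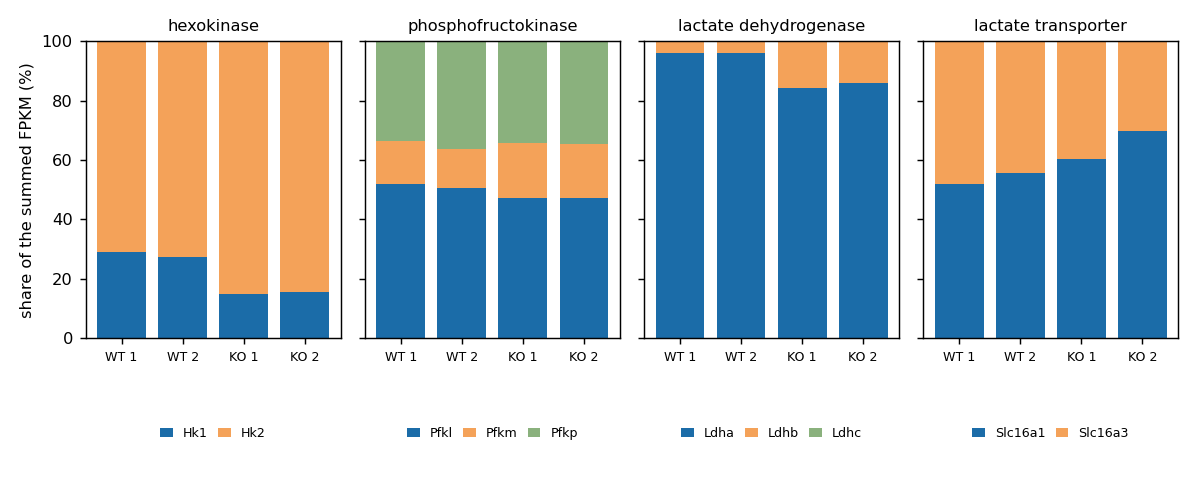
Share of the summed FPKM (%) of each isoform in 4 families, as stacked bars for each of the 2 WT and 2 KO libraries. The *Ldhb* share rose from 3.66% and 3.70% to 15.5% and 14.1% and the *Hk2* share from 71.0% and 72.8% to 85.1% and 84.3%, while the share of *Slc16a3* among the lactate transporters was 48.0% and 44.3% in WT and 39.7% and 30.1% in KO.

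*Pfkfb3* and *Pfkfb4* make and remove the sugar phosphate that activates phosphofructokinase. *Pfkfb3* was 1.57 and 1.38 FPKM in WT and 1.98 and 2.29 FPKM in KO, a log2 difference of 0.50 that did not pass (adjusted p = 0.124). *Pfkfb4* overlapped between the genotypes, at 0.829 to 1.37 FPKM in WT and 1.02 to 1.11 FPKM in KO.

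Of the 4 transporters only *Slc16a3*, which encodes the lactate exporter MCT4 (chr11:120948484-120959000, forward strand), changed. It read 27.3 and 25.1 FPKM in WT and 15.9 and 11.6 FPKM in KO. The KO libraries differed from each other more than the WT libraries did, but both lay well below them. The log2 fold change was −0.94 (SE 0.16, adjusted p = 0.0198). *Slc16a1* (MCT1), which carries lactate in either direction, was 29.6 and 31.6 FPKM in WT and 24.2 and 26.9 FPKM in KO (log2 difference −0.26, adjusted p = 0.125). The summed lactate transporter FPKM was 56.9 and 56.7 in WT and 40.1 and 38.5 in KO. For glucose uptake, *Slc2a1* (GLUT1) spanned 117 to 133 FPKM in WT and 106 to 123 FPKM in KO, which overlapped. *Slc2a3* (GLUT3) was 165 and 151 FPKM in WT and 185 and 176 FPKM in KO (log2 difference 0.19, adjusted p = 0.174). The glucose transporter sum overlapped between the genotypes, at 268 to 297 FPKM in WT and 282 to 307 FPKM in KO.

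*Ak4* encodes a mitochondrial adenylate kinase that is a known HIF-1 target, and lies at chr4:101419289-101467771 on the forward strand. It was 9.04 and 8.80 FPKM in WT and 4.57 and 4.23 FPKM in KO. Libraries of a genotype were close and the genotypes far apart. The log2 fold change was −1.005 (SE 0.11, adjusted p = 0.00604), just past the 2-fold limit. *Slc16a3*, at −0.94, was the nearest member short of it.

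*Bnip3* (chr7:138889895-138909509, reverse strand), a mitophagy receptor of the outer mitochondrial membrane, was 9.94 and 13.3 FPKM in WT and 6.13 and 6.64 FPKM in KO (log2 fold change −0.84, SE 0.16, adjusted p = 0.0253). The WT libraries differed from each other, yet the lower of them stayed above both KO libraries. Its relative *Bnip3l* (NIX) did not follow, at 25.8 and 29.9 FPKM in WT and 28.4 and 31.5 FPKM in KO, which overlapped. *Ankrd37* (chr8:45975528-45999850, reverse strand), an ankyrin-repeat gene induced by HIF, was 6.04 and 6.07 FPKM in WT and 4.13 and 3.92 FPKM in KO (log2 fold change −0.58, SE 0.11, adjusted p = 0.0262). It shared its listed coordinates with *Ufsp2*, and without KO replicate 2 its adjusted p was 0.0644.

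*Kdm3a* (chr6:71588970-71632950, reverse strand), a demethylase of histone H3 lysine 9 that hypoxia is known to induce, rose. It read 19.5 and 20.8 FPKM in WT and 34.5 and 37.7 FPKM in KO, with the groups far apart (log2 fold change 0.84, SE 0.09, adjusted p = 0.00604). *Ndrg1*, a stress response gene, was also higher in both KO libraries, at 5.22 and 4.69 FPKM against 3.50 and 3.52 FPKM, but did not pass (log2 difference 0.48, adjusted p = 0.0561). *Ddit4* (REDD1), an inhibitor of mTORC1, was lower in both, at 12.8 and 12.2 FPKM against 15.7 and 15.9 FPKM, and did not pass either (log2 difference −0.34, adjusted p = 0.0561). With the features that have no symbol left out, *Ndrg1* and *Ddit4* passed (adjusted p = 0.0366 and 0.0433). In that fit the adjusted p of *Ldha* also fell, from 0.00989 to 0.0016, and that of *Eno2* from 0.0276 to 0.00804. The log2 fold changes of *Ldha* and *Eno2* stayed the same. The share of all features that passed in that fit is not given here.

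The remaining HIF targets did not pass. *Vegfa*, the angiogenic growth factor gene, was 16.6 and 15.7 FPKM in WT and 16.8 and 15.6 FPKM in KO, a log2 difference of 0.01 with a 95% interval from −0.21 to 0.23. The collagen prolyl hydroxylase genes *P4ha1* and *P4ha2* had log2 differences of −0.30 and 0.03, and *Higd1a*, a mitochondrial protein gene, −0.11. *Car9*, carbonic anhydrase IX, and *Adm*, adrenomedullin, both strongly hypoxia-inducible in many cells, stayed under the minimum. *Car9* read 0.157 and 0.131 FPKM in WT and 0.264 and 0.115 FPKM in KO. *Adm* was listed at 0 and 0.0712 FPKM in WT and at 0.0380 and 0 FPKM in KO, so no change was detectable in either gene at these levels. Of the 11 tested HIF targets 1 rose, 3 fell and 7 did not pass, with a median log2 fold change of −0.11, against 6.85% risen and 5.6% fallen over all tested features. The fall of *Ak4* was known when the members were chosen. Glycolytic enzymes, transporters and *Egln3* were counted under other roles, although HIFs also bind promoters of glycolytic genes. Among those other members, *Ldha* and *Slc16a3* fell and *Ldhb* and *Eno2* rose.

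**Figure D3:**
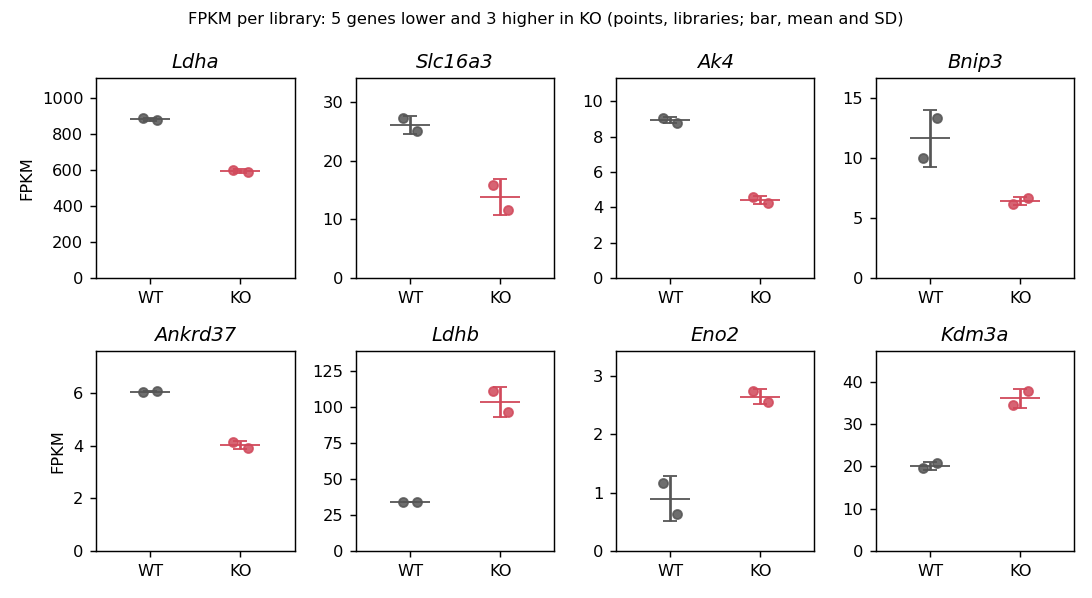
FPKM in each library (points) with the mean and SD of each genotype (bar and whiskers, n = 2 libraries each) for the 8 members that passed, each on its own axis from 0. The top row and *Ankrd37* are lower in KO, as for *Ldha* (888 and 877 against 603 and 587 FPKM), and *Ldhb*, *Eno2* and *Kdm3a* are higher, with no overlap in any panel.

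The falls of *Ldha* and *Ak4* raise the question whether HIF activity as a whole was lower in the KO libraries, which RNA levels can address only through the HIF genes and their targets. *Hif1a* was 29.9 and 35.1 FPKM in WT and 24.8 and 28.8 FPKM in KO. The higher KO library lay just under the lower WT library, and the log2 difference of −0.28 (SE 0.12, 95% interval −0.57 to 0.02) did not pass (adjusted p = 0.187). *Hif1a* passed in 1 of 14 alternatives, with the replicate number as a block (adjusted p = 0.011), where 17.3% of all tested features fell. *Arnt*, the partner subunit, was 17.5 and 18.1 FPKM in WT and 18.4 and 18.3 FPKM in KO (log2 difference 0.04, adjusted p = 0.751). *Epas1*, which encodes HIF-2α, had a log2 difference of −0.11 (adjusted p = 0.444). HIF is regulated mostly through protein stability, and neither HIF protein nor oxygen was measured by these libraries.

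Members that turn HIF off showed no change past the threshold. *Egln1* (PHD2), the main oxygen sensor, overlapped at 4.69 to 5.44 FPKM in WT and 4.50 to 4.77 FPKM in KO. *Vhl* was 8.77 and 8.62 FPKM in WT and 7.90 and 8.20 FPKM in KO (log2 difference −0.11, adjusted p = 0.483). *Egln3* (PHD3), a hydroxylase that is itself a HIF target, was higher in both KO libraries at 4.55 and 3.32 FPKM against 2.57 and 2.73 FPKM, with a log2 difference of 0.53 that did not pass (adjusted p = 0.116). The KO libraries of *Egln3* differed from each other, and its log2 difference ranged from 0.313 to 0.758 over the alternatives. Of 19 tested genes of HIF machinery outside the members, none rose and 1 fell, *Siah2*, a ubiquitin ligase that acts on the hydroxylases (log2 fold change −0.49, adjusted p = 0.0478), a call met in 7 of 14 alternatives. Over all tested features 6.85% rose and 5.6% fell. The median log2 difference of the 19 machinery genes was 0.02. Of these 19 genes, 8 were higher in both KO libraries and 5 lower in both, against 27.0% and 31.7% of all tested features. Among the higher, *Egln2*, a further hydroxylase gene, was 34.0 and 29.7 FPKM in WT and 40.6 and 39.0 FPKM in KO. Its log2 difference was 0.32 (adjusted p = 0.0809), and that of *Cited2* was 0.27 (adjusted p = 0.0793). With the replicate number as a block both passed (adjusted p = 0.0128 and 0.0169), where 13.9% of all tested features rose.

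A further list of 43 HIF targets, of which 33 were tested, held 4 genes that rose and 2 that fell, with a median log2 difference of −0.02. Over all tested features 6.85% rose and 5.6% fell, and the fallen share of the list was near that background. The risen genes were *Bhlhe40*, a transcriptional repressor that is also a clock gene (2.62 and 2.79 FPKM in WT, 12.2 and 10.03 FPKM in KO, adjusted p = 0.00226), *Hk2*, *Plin2*, a lipid droplet protein gene (log2 fold change 0.68, adjusted p = 0.0223), and *Wsb1*, a ubiquitin ligase adaptor gene (0.31, adjusted p = 0.0472, a call met in 8 of 14 alternatives). The fallen genes were *Fam162a*, whose product acts at mitochondria, and *Hmox1*, which encodes the haem-degrading enzyme. *Fam162a* was 112 and 122 FPKM in WT and 76.3 and 77.3 FPKM in KO (log2 fold change −0.61, adjusted p = 0.00947). *Hmox1* was 136 and 128 FPKM in WT and 86.0 and 77.3 FPKM in KO (log2 fold change −0.69, adjusted p = 0.00881). Risen and fallen targets thus stood side by side in both HIF lists. Of the risen, *Kdm3a*, *Hk2* and *Bhlhe40* lie on chromosome 6, where 20.4% of tested features with a symbol rose. *Plin2*, *Wsb1* and all fallen targets of both lists lie on other chromosomes. What part this position has was not tested.

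**Figure D4:**
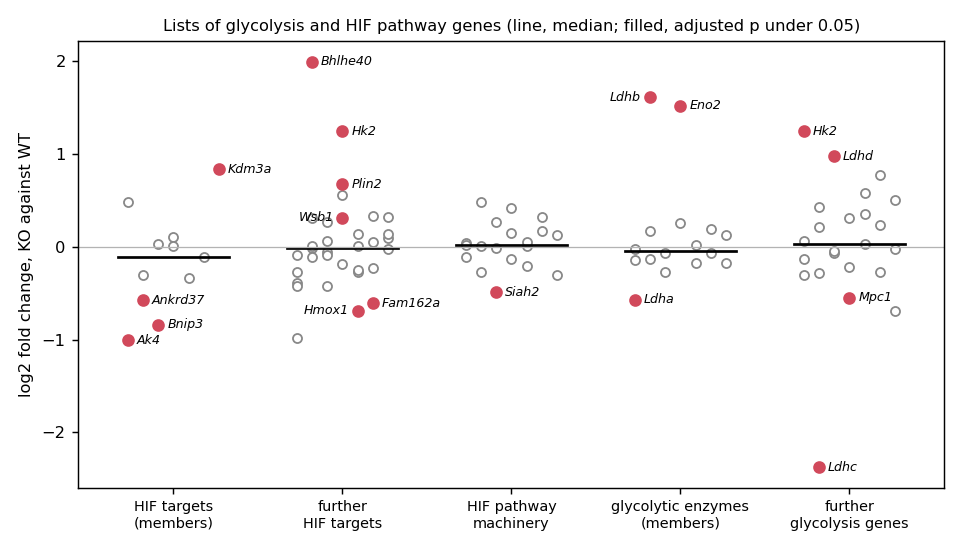
Log2 fold change (KO against WT) of every tested gene in 5 lists, where each point is a gene, black lines are medians and filled points passed an adjusted p of 0.05. The medians lie between −0.11 (HIF targets among the members) and 0.03 (further glycolysis genes), and genes that passed lie on both sides of 0 in 4 of the 5 lists; *Hk2* belongs to 2 lists.

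Of 23 tested glycolysis genes outside the members, 2 rose and 2 fell, near the 6.85% and 5.6% of all tested features. *Hk2* and *Ldhd*, a mitochondrial D-lactate dehydrogenase gene (log2 fold change 0.97, adjusted p = 0.0234), rose. *Ldhc* and *Mpc1*, a subunit gene of the carrier that brings pyruvate into mitochondria (−0.55, adjusted p = 0.0133), fell. *Ldhd*, *Mpc1* and, among the HIF targets, *Bhlhe40* shared their listed coordinates with other genes. *Pdk1*, the HIF-induced kinase that holds pyruvate out of the citric acid cycle, had a log2 difference of −0.28 (adjusted p = 0.0691), and its listed coordinates covered several other genes. In the pentose phosphate pathway, which branches from glycolysis, 1 of 8 genes rose, *Rpia* (log2 fold change 0.76, adjusted p = 0.0142). Over all tested features 6.85% rose.

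The members that rose shared a chromosome. *Eno2*, *Ldhb* and *Kdm3a* all lie on chromosome 6, as do *Hk2*, *Bhlhe40* and *Rpia* of the other lists. Among the 7 tested members there, 3 rose, none fell and the median log2 fold change was 0.19, while among the 29 elsewhere none rose, 5 fell and the median was −0.11. Over all 545 tested features with a symbol on chromosome 6, 20.4% rose and 5.5% fell, with a median of 0.08. On every other chromosome with at least 20 such features the share that rose was 4.4% to 8.81%. Nearby genes moved with some of these members and not with others. Of the 20 nearest tested genes, 14 rose around *Kdm3a* (median log2 fold change 0.89) and 17 around *Hk2* (median 0.92). Around *Ldhb* and *Eno2* the medians were 0.01 and 0.02, with 2 and 1 of 20 risen, and around *Bhlhe40* the median was 0.04 with 1 of 20 risen. *Rpia* lay between, with 7 of 20 neighbours risen and a median of 0.04. The changes of *Ldhb* and *Eno2* were thus larger than the median of the genes beside them, whereas *Kdm3a* (0.84) lay at the level of its surroundings. Medians around the 5 fallen members were −0.18 to −0.04. What part chromosome position has in these changes was not tested.

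**Figure D5:**
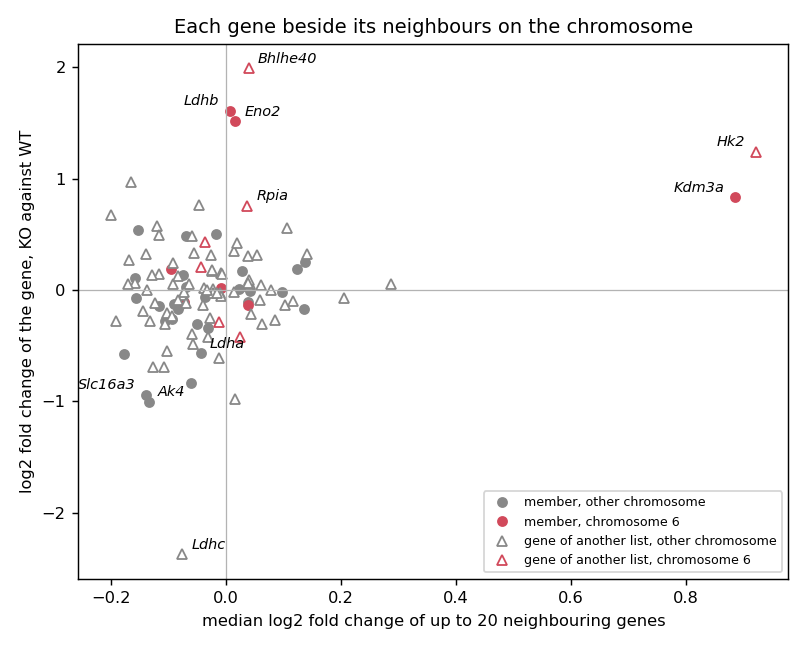
Log2 fold change of each tested gene (y axis) against the median log2 fold change of its 20 nearest tested genes on the chromosome (x axis), with filled circles for members, open triangles for genes of the other lists and red for chromosome 6. *Kdm3a* and *Hk2* stand alone at the right, with neighbour medians of 0.89 and 0.92, while *Ldhb* and *Eno2* lie high over medians of 0.01 and 0.02.

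*Ldha*, *Ak4*, *Ldhb* and *Kdm3a* passed the threshold under every alternative tried, including each fit with a library left out. *Eno2*, *Slc16a3*, *Bnip3* and *Ankrd37* did not when no minimum level was applied (adjusted p = 0.0702, 0.0511, 0.0612 and 0.0581). FPKM carry no read counts, so the depth behind each level is unknown, which bears most on low genes. With a pseudocount of 1 the log2 fold change of *Eno2* was 0.96 and that of *Ldhc* −1.18.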

How the data were processed

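RNA-seq was made from 2 WT and 2 *Bmal1* KO ESC libraries, grouped by their labels. Per the submitters' processing notes, the authors used TopHat2 2.1.1, Bowtie2 2.3.0 and Cufflinks 2.2.1 on GRCm38 (mm10), and the deposited values are FPKM for each feature and library. FPKM hold no counts, so depth is unknown and no count model was used. Listed starts were raised by 1 to count from 1.

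Features with a mean of at least 0.5 FPKM were tested on log2(FPKM + 0.1) with limma 3.58.1 in R 4.3.3 (moderated test with a variance trend, two-sided) and Benjamini-Hochberg adjustment over all of them; fold changes on this scale understate those of low genes. Ratios of 2 genes were compared by an exact permutation test. The fit was tested on simulated data. Every member is accounted for, and members that passed an adjusted p of 0.05, *Ldha*, *Ak4*, isoforms being compared, genes of the other lists that passed, *Hif1a* and *Arnt* were named by rule; other named genes were chosen after their values were seen. The members and lists were chosen with earlier results of these data known. *Hk2*, *Pdk1* and *Cited2* each stand in 2 lists. Alternatives covered the pseudocount (0.01 and 1), the minimum, the scaling, the variance trend, summing by symbol, features without a symbol, a replicate block and each library left out. Promoter windows came from RefSeq (GRCm38.p6). Figures were drawn with matplotlib 3.10.9.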

Additional observations from a re-analysis of the deposited data

How the results depend on the processing

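With 2 libraries a group, FPKM without counts and 1 KO clone, low genes and small differences are the least certain. The count of members that rose was 3 and of those that fell 5. The count that fell was 2 with no minimum level and 3 with no variance trend, where the adjusted p was 0.0574 for *Slc16a3*, 0.0619 for *Bnip3* and 0.056 for the risen *Eno2*. Members called at 2-fold went from 3 to 1 with a pseudocount of 1, which by construction shrinks the changes of low genes. The shares of all tested features called in these alternatives are not given here, so these counts cannot be set against a background. With each library left out in turn, the log2 fold change of *Ldha* ranged from −0.588 to −0.55 and that of *Eno2* from 1.116 to 1.921. The tests of those fits took a lone library to vary like the other group. The difference between KO and WT in the log2 ratio of *Ldha* to *Ldhb* ranged from −2.27 to −2.10 and that for *Ldha* to the other enzymes from −0.61 to −0.49, in fits added after seeing the data.

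The replicate numbers are shared by the genotypes but nothing ties equal numbers to a culture or day. Deviations of equally numbered libraries correlated by Pearson's r = 0.0712 and Spearman's rho = 0.387 over 12990 features, which are not independent. With the number as a replicate block, 7 of 36 members rose and 12 fell, where 13.9% of all tested features rose and 17.3% fell.

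The median of the glycolytic enzymes was −0.04 and became 0.10 with quantile normalization, and ranged from −0.09 to 0.02 with a library left out. The median of the HIF targets (−0.11) was −0.18 without WT replicate 1 and −0.038 without WT replicate 2, the ends of its range. Near 0, some log2 differences changed sign. With quantile normalization these were *Aldoa* (0.13), *Pgam1* (0.047), *Eno1* (0.08) and *P4ha2* (−0.032). With a library left out, the range was −0.093 to 0.052 for *Aldoa*, −0.083 to 0.124 for *Gapdh*, −0.338 to 0.322 for *Pfkfb4*, −0.046 to 0.058 for *Vegfa*, −0.011 to 0.06 for *P4ha2* and −0.00 to 0.21 for *Bnip3l*. No member that passed changed sign under any alternative tried. The causes were not tested.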
